A study of Mus musculus with 68 samples.

Results

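The 9 genes described here encode transcription factors that set intestinal identity and the differences between intestinal segments. They were chosen by name from the 23356 rows of the expression table, not by a cut on measured values. Earlier results of these data were known when they were chosen. They are the caudal homeobox factors Cdx1 and Cdx2, the zinc finger factors Gata4, Gata5 and Gata6, the homeobox factor Pdx1, the cut homeobox factor Onecut2, and the nuclear receptors Hnf4a and Hnf4g. All 9 were among the 14098 genes tested, those with at least 1 FPKM (fragments per kilobase of transcript, scaled to library size) in at least 2 specimens.

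As background, CDX1 and CDX2 specify intestinal rather than gastric epithelium and bind many genes of mature enterocytes, and Cdx2 acts as a tumour suppressor in the mouse colon. GATA4 is made in the proximal small intestine and keeps ileal genes silent there, while GATA6 is made along the whole intestine. PDX1 is needed for the pancreas and marks the proximal duodenum. HNF4A and HNF4G bind overlapping sites in enterocyte genes, many of them for fat absorption.

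RNA was measured in 23 intestinal specimens of C57BL/6 mice aged 3 months, in 12 groups, to study Cftr deficiency with wildtype Apc and with the ApcMin allele. Cftr encodes an epithelial chloride and bicarbonate channel, and APC restrains Wnt signalling. Apc wildtype mice labelled Cftr knockout, which carry floxed Cftr and the gut-epithelial Cre driver Villin-Cre, were the source of 2 tumours of the duodenum and 1 of the colon. ApcMin mice labelled Cftr knockout gave 2 ileum and 2 colon tumours, and ApcMin mice with wildtype Cftr gave 2 of each. ApcMin mice heterozygous for Cftr, which the submitters also call a knockdown, gave 2 duodenal and 2 colon tumours. Normal tissue came from Apc wildtype mice, with 2 duodenum and 2 colon specimens labelled Cftr knockout and 2 of each with wildtype Cftr. The labels give whole tissue for colon and epithelium for duodenum, whereas per the design text epithelial cells were taken from colon and duodenum was stripped of villi. There was no normal ileum and no normal tissue of heterozygous or ApcMin mice. Which Cftr alleles the ApcMin mice carried is not given in the sources used here.

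The ApcMin tumours of a given Cftr genotype and organ came from 1 animal number, so genotype and animal cannot be told apart there, and their spread is between tumours of an animal. Normal duodenum and normal colon with the same replicate number came from the same animal, and colon tumour 1 and duodenal tumour 2 of the Apc wildtype knockouts shared an animal. Cftr was at 11.2 to 77.2 FPKM across the 11 knockout-labelled specimens, against 9.58 to 51.7 FPKM across the 12 others, and a level over the whole gene does not check the deletion. Xist, made in females, was at 24.0 to 55.6 FPKM in the 12 ApcMin tumours and 34.2 FPKM in Apc wildtype knockout duodenal tumour 1, against 0.0212 to 0.461 FPKM in the other 10 specimens. Tumour and sex therefore cannot be told apart between ApcMin tumours and normal tissue. The 68 columns spanned a 1.84-fold range of relative depth. In run 1 the gap between both specimens of wildtype duodenum was smaller than sampling noise, so they entered all tests as 1 sample.

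Some specimens stood apart from the rest of their group. The specimen labelled heterozygous duodenal tumour 2 held 13742 FPKM of Fabp6, an ileal bile acid carrier, against 1.02 to 10.7 FPKM in the other duodenal specimens. It also held 165 FPKM of the ileal bile acid transporter gene Slc10a2, 63.6 FPKM of Fgf15 and 2.36 FPKM of the proximal enzyme gene Lct. These levels go against its duodenal label, so some results with it are also given without it. The rest include it, among them Gata4 and Gata6 against normal duodenum and all results of the gene lists. The run 1 library of wildtype colon 2 held 2254 FPKM summed over 8 lipid transport genes of the small intestine, against 179 FPKM in the run 2 library of the same specimen. Duodenum specimen 1 of the knockouts held 1335 FPKM summed over 8 pancreatic acinar genes, against at most 6.7 FPKM elsewhere. Epithelial markers summed to 5174 to 10971 FPKM in all tumours and 5611 to 8513 FPKM in normal tissue. In bulk tissue, fewer cells of a type and less RNA per cell cannot be told apart.

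Cdx2, Gata5 and Hnf4a passed the test in colon tumours of at least 1 group, as did Cdx1, Onecut2 and Hnf4g, whose windows are not used here. The windows before the transcription starts of Cdx2, Gata5 and Hnf4a are shown with the motifs found in them. Each is the 250 bases before a RefSeq start on build GRCm38.p6, written 5′ to 3′ on the gene's strand, with motif matches in capitals. Cdx2 is at chr5:147307250-147307499 (minus strand), Gata5 at chr2:180334680-180334929 (minus strand), and Hnf4a has an upstream start at chr2:163506607-163506856 (plus strand) and a downstream start at chr2:163546905-163547154 (plus strand).
Cdx2: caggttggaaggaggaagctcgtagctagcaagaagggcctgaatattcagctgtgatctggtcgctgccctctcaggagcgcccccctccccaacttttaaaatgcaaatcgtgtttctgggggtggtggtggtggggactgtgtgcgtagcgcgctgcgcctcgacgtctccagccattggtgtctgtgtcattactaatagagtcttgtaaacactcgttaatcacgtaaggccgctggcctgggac
Gata5: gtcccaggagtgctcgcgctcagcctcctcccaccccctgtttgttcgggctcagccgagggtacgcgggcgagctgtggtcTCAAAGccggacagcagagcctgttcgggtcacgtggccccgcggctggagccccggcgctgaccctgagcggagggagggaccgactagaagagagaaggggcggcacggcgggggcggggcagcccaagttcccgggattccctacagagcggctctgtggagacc
Hnf4a upstream: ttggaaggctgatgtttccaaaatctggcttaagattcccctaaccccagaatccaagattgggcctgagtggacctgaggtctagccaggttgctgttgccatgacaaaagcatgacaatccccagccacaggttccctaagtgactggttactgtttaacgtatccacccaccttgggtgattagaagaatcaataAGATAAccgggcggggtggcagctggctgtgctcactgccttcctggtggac
Hnf4a downstream: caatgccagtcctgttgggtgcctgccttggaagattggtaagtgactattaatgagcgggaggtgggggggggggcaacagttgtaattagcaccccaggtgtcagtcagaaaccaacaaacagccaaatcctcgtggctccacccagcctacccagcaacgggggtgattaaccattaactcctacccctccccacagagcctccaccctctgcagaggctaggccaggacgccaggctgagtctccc
Motifs were searched on both strands as AGATAA or TGATAA for GATA factors, TTTATG or TTTATT for CDX, CAAAGTCC or CAAAGGTC for HNF4, and CTTTGA for TCF/LEF, which shares the letters CAAAG with the HNF4 motif. The upstream Hnf4a window held AGATAA 52 bases before the start, and GATA matches are in 16.6% of 32851 RefSeq windows. The Gata5 window held TCAAAG 168 bases before the start, and TCF/LEF matches are in 13.8% of windows. The Cdx2 window, the downstream Hnf4a window and the Pdx1 window, which is not shown, held none of these letters. CDX matches are in 25.5% and HNF4 matches in 2.19% of windows.

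The members fell into those with a segment pattern and those at a like level along the intestine. Gata4, Gata5, Gata6 and Hnf4g were higher in every one of the 12 small intestinal specimens than in any of the 11 colon specimens, tumours included. Of all genes tested, 7.92% were apart in that way, in either direction. Gata4 spanned 5.02 to 82.4 FPKM in the small intestine, against 0.0753 to 3.23 FPKM in the colon. Gata5 spanned 27.0 to 47.9 FPKM in the small intestine, against 0.962 to 14.7 FPKM in the colon. The narrowest of these differences was that of Gata6, at 27.1 to 42.2 FPKM in the small intestine against 14.3 to 20.7 FPKM in the colon. Hnf4g spanned 48.5 to 187 FPKM in the small intestine, against 4.12 to 15.1 FPKM in the colon.

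Pdx1, Onecut2 and Gata4 had the widest range of specimen levels, with highest over lowest ratios of 2101, 2306 and 1094. The ratios were 49.7 for Gata5, 45.5 for Hnf4g and 14.04 for Cdx2. Cdx1, Hnf4a and Gata6 varied least, at 3.87, 3.67 and 2.95. Hnf4a had the highest level per length of the 9 in normal tissue and in small intestinal tumours. In heterozygous colon tumours Cdx1 was above it, at 137 and 147 FPKM against 102 and 105 FPKM, as it was in the Apc wildtype knockout colon tumour, at 149 FPKM against 139 FPKM.

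**Figure D1:**
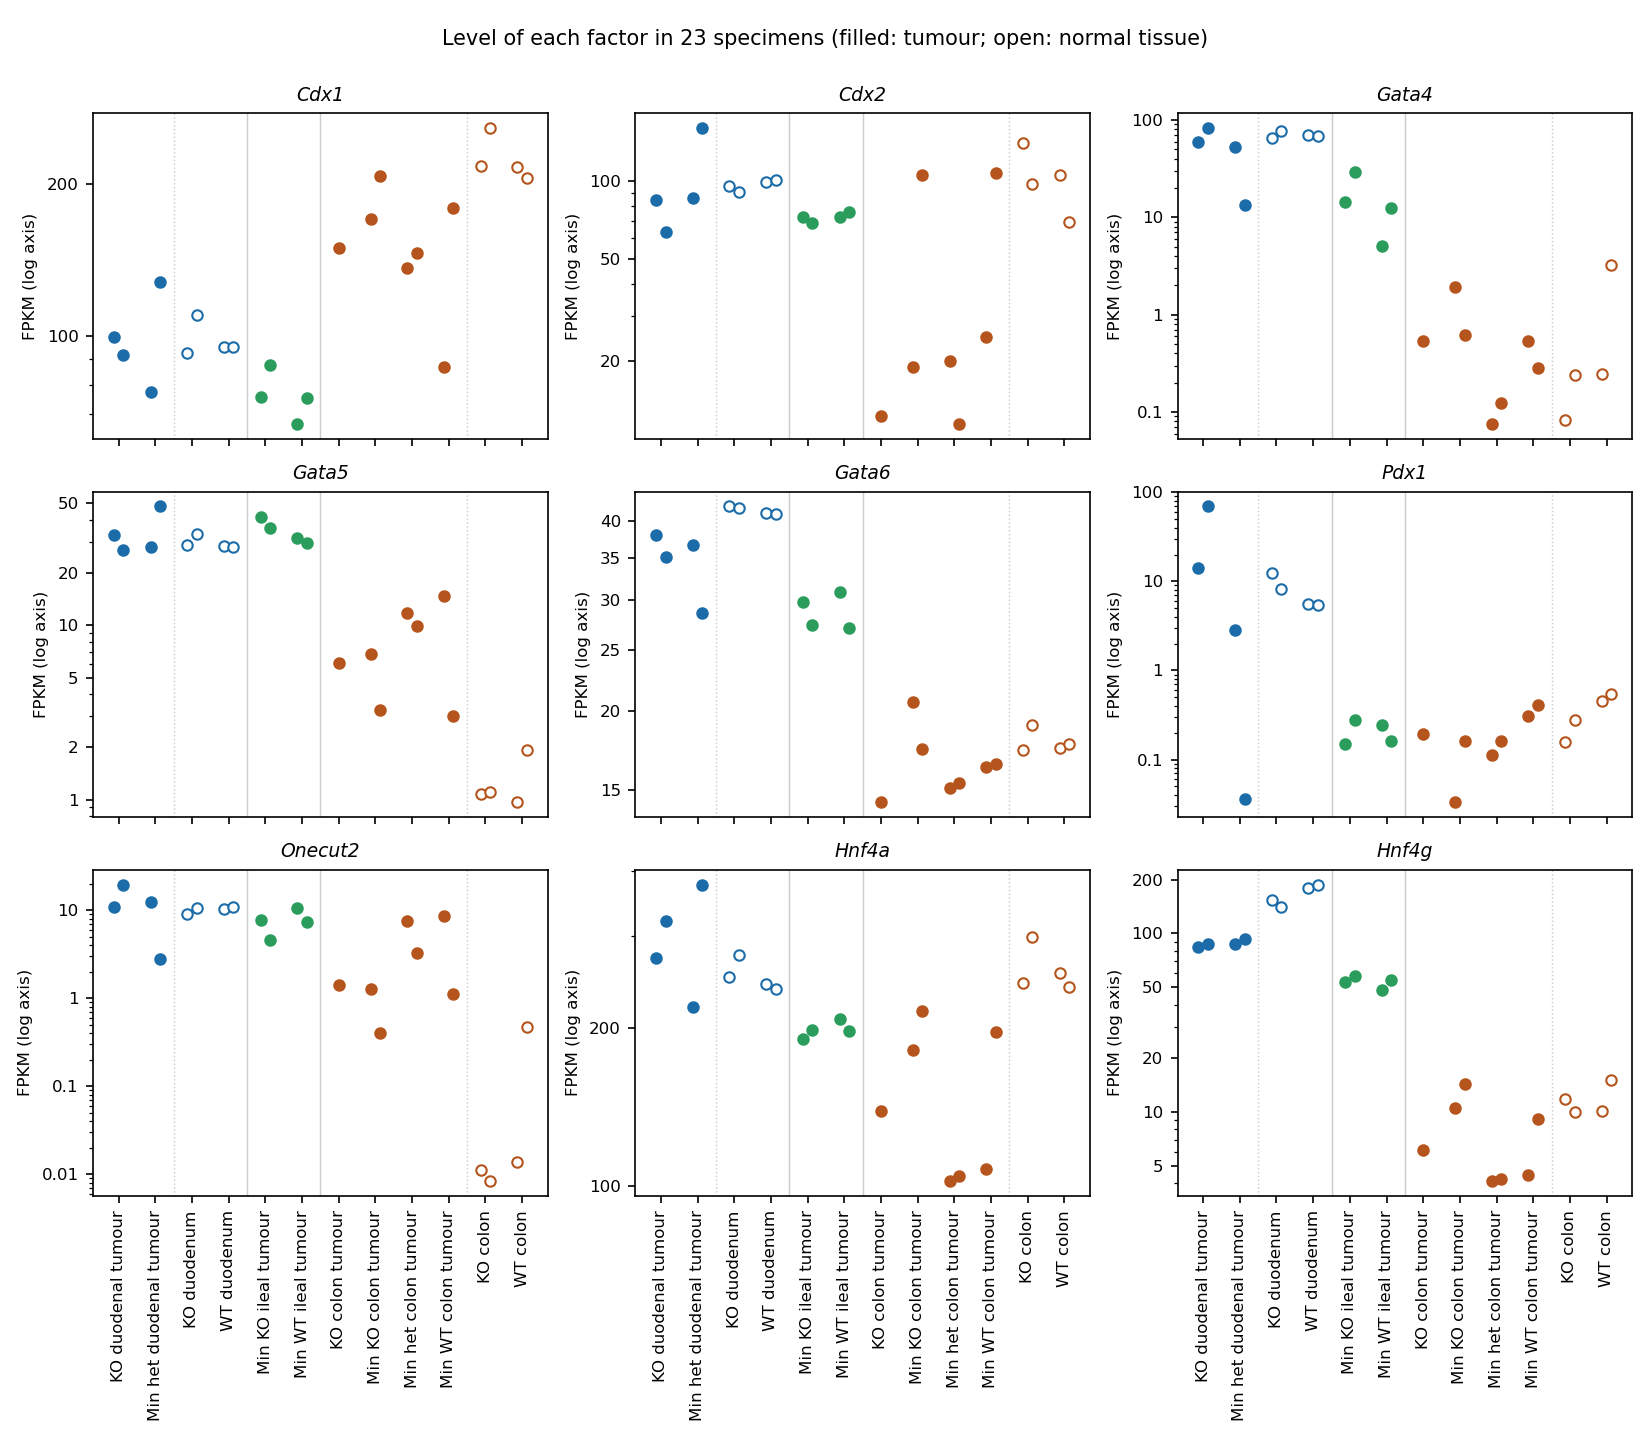
Level of each of the 9 factors in FPKM on a log axis, by group, with filled points for tumour specimens and open points for normal specimens (Min, ApcMin; KO, het and WT, Cftr genotype; groups without Min are Apc wildtype). The Gata4 and Hnf4g points of all small intestinal groups lie above all colon points, and the Gata5 points of colon tumours lie between those of normal colon and those of the small intestine.

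Between normal duodenum and normal colon, 7 of the 9 factors passed the test, against 55.6% of all genes tested. Gata4, Gata5, Gata6, Pdx1, Onecut2 and Hnf4g were higher in duodenum, Cdx1 was lower, and Cdx2 and Hnf4a did not pass. The test was limma on log2(FPKM + 1) with Benjamini-Hochberg adjustment over all genes tested. Each log2 difference below is on that scale with its standard error, and differences between low levels are therefore understated.

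Gata4, which marks the proximal small intestine, was at 65.0 and 76.1 FPKM in knockout duodenum and 69.2 and 67.9 FPKM in wildtype duodenum. Its colon levels were 0.0823 and 0.239 FPKM in knockouts and 0.245 and 3.23 FPKM in wildtypes. The highest colon value came from wildtype colon 2, whose libraries gave 6.38 FPKM in run 1 and 0.0835 FPKM in run 2. The log2 difference was 5.43 ± 0.50 (adjusted p = 2.06e-06).

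Gata5 was at 28.9 and 33.1 FPKM in knockout duodenum and 28.5 and 28.1 FPKM in wildtype duodenum. Its colon levels were 1.07 and 1.10 FPKM in knockouts and 0.962 and 1.93 FPKM in wildtypes, a log2 difference of 3.77 ± 0.38 (adjusted p = 4.47e-06). Exons of an antisense gene, Gata5os, overlap Gata5, and reads from these cannot be told apart without strand information. Gata6 was at 42.2 and 42.0 FPKM in knockout duodenum and 41.2 and 41.0 FPKM in wildtype duodenum, against 17.4, 19.03, 17.5 and 17.7 FPKM in the colon specimens. Its difference of 1.17 ± 0.09 (adjusted p = 5.55e-07) was small beside those of the other GATA genes, and its exons overlap those of 1010001N08Rik on the other strand.

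Hnf4g, the HNF4 paralogue, was at 154 and 141 FPKM in knockout duodenum and 181 and 187 FPKM in wildtype duodenum. The colon specimens held 11.9 and 9.96 FPKM in knockouts and 10.2 and 15.1 FPKM in wildtypes, and the difference was 3.71 ± 0.19 (adjusted p = 2.18e-08). Hnf4a itself was at 251, 277, 243 and 238 FPKM in duodenum and 245, 299, 255 and 240.1 FPKM in colon. These groups overlapped, with a difference of -0.04 ± 0.20 (adjusted p = 0.889). Whether the paralogues differ from each other in this was not tested.

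Pdx1 was at 12.3 and 8.18 FPKM in knockout duodenum and 5.63 and 5.50 FPKM in wildtype duodenum, against 0.156 to 0.551 FPKM in colon. The specimen at 12.3 FPKM was the one with pancreatic acinar transcripts, whose part in its Pdx1 level was not tested. The log2 difference was 2.66 ± 0.48 (adjusted p = 0.000445). Onecut2 was at 9.13, 10.5, 10.3 and 10.8 FPKM in duodenum and at 0.0112, 0.00844 and 0.0138 FPKM in 3 colon specimens. The fourth, wildtype colon 2, averaged 0.467 FPKM, from 0.926 FPKM in run 1 and 0.00865 FPKM in run 2. The Onecut2 difference was 3.33 ± 0.53 (adjusted p = 0.000178).

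Cdx1, lower in duodenum, was at 92.6, 110.0, 95.3 and 95.1 FPKM, against 218, 259, 217 and 206 FPKM in colon. The groups did not overlap, and the difference was -1.18 ± 0.22 (adjusted p = 0.000656). Cdx2 was at 95.6, 90.9, 99.1 and 101 FPKM in duodenum and 141, 97.6, 106 and 69.5 FPKM in colon. Its difference of -0.05 ± 0.56 did not pass (adjusted p = 0.947). These calls pool both Cftr genotypes. In the knockouts 7 members passed, against 45.7% of genes, and in the wildtypes 7, against 34.6% of genes, with the wildtype duodenum as 1 sample whose error comes from the other groups.

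In colon tumours, Gata5 was higher and Hnf4a lower than in every normal colon specimen, and Onecut2 was higher in most. Cdx2, Gata6 and Hnf4g were below every normal colon specimen in 5 of 7 tumours, and Cdx1 in 6 of 7. Gata6 was above every normal colon specimen in 1 of 7. Gata4, Gata6 and Pdx1 passed no test in colon tumours. Over 7 tumours and 4 normal specimens, 31.3% of all genes tested had groups that did not overlap, in either direction. The tumours were tested group by group against normal colon of other, Apc wildtype animals. Knockout and Cftr wildtype tumours were set against normal colon of the same Cftr label. Heterozygous tumours, here and in the duodenum, were set against the mean of knockout and wildtype normal tissue.

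Gata5 was at 6.08 FPKM in the Apc wildtype knockout tumour, 6.86 and 3.25 FPKM in ApcMin knockout tumours, 11.7 and 9.87 FPKM in heterozygous tumours and 14.7 and 3.007 FPKM in ApcMin Cftr wildtype tumours. Normal colon held 1.07 and 1.10 FPKM in knockouts and 0.962 and 1.93 FPKM in wildtypes. Every tumour was above every normal specimen, and the ranges stayed apart without the run 1 library of wildtype colon 2. Gata5 passed in heterozygous tumours (2.30 ± 0.33, adjusted p = 0.000674) and in ApcMin Cftr wildtype tumours (2.09 ± 0.49, adjusted p = 0.00836). It missed the threshold in ApcMin knockout tumours (1.47 ± 0.49, adjusted p = 0.0769) and in the single Apc wildtype knockout tumour (1.76 ± 0.59, adjusted p = 0.067).

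Onecut2 was at 1.40 FPKM in the Apc wildtype knockout tumour, 1.29 and 0.401 FPKM in ApcMin knockout tumours, 7.58 and 3.28 FPKM in heterozygous tumours and 8.54 and 1.10 FPKM in ApcMin Cftr wildtype tumours. Normal colon held 0.0112 and 0.00844 FPKM in knockouts and 0.0138 and 0.467 FPKM in wildtypes. Of the 7 tumours, 6 were above all normal specimens, and all 7 were when the run 1 library of wildtype colon 2 was left out, with normal colon then at most 0.0138 FPKM. Onecut2 passed in heterozygous tumours (2.35 ± 0.52, adjusted p = 0.00545) and in ApcMin Cftr wildtype tumours (2.15 ± 0.56, adjusted p = 0.0126). It did not pass in ApcMin knockout tumours (0.82 ± 0.56, adjusted p = 0.348) or in the Apc wildtype knockout tumour (1.25 ± 0.82, adjusted p = 0.317).

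Levels of Mttp, Gata4 and Fabp6 are given beside these. In the ApcMin Cftr wildtype animal, Gata5 was at 31.6 and 29.5 FPKM in the ileum tumours and 14.7 FPKM in colon tumour 1. Mttp, a lipid transfer gene of enterocytes, was at 120 and 181 FPKM in these ileum tumours and 3.07 FPKM in that colon tumour. The heterozygous colon tumours held 1.68 and 2.30 FPKM of Mttp and 0.0753 and 0.125 FPKM of Gata4. Fabp6 was at 53.8 FPKM in colon tumour 1 of the ApcMin Cftr wildtype animal and 50.1 and 82.3 FPKM in ApcMin knockout colon tumours. In the other colon tumours it was at 4.53 to 6.89 FPKM, and in normal colon at 4.15 to 7.38 FPKM. Gata4 was at 0.614 to 1.93 FPKM in the ApcMin knockout colon tumours, against 0.0823 and 0.239 FPKM in knockout colon. The part of small intestinal RNA in Gata5 and Onecut2 was not tested.

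Hnf4a was at 139 FPKM in the Apc wildtype knockout tumour, 181 and 216 FPKM in ApcMin knockout tumours, 102 and 105 FPKM in heterozygous tumours and 108 and 197 FPKM in ApcMin Cftr wildtype tumours. All 7 lay below the normal colon range of 240.1 to 299 FPKM. Hnf4a passed in heterozygous tumours (-1.32 ± 0.20, adjusted p = 0.000831) and in ApcMin Cftr wildtype tumours (-0.75 ± 0.22, adjusted p = 0.0233). In the Apc wildtype knockout tumour the difference was -0.95 ± 0.32 (adjusted p = 0.0649), and in ApcMin knockout tumours -0.45 (adjusted p = 0.206).

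Cdx2 split the colon tumours. It was at 12.3 FPKM in the Apc wildtype knockout tumour, 18.99 and 106 FPKM in ApcMin knockout tumours, 20.1 and 11.4 FPKM in heterozygous tumours and 24.9 and 108 FPKM in ApcMin Cftr wildtype tumours. Normal colon held 141 and 97.6 FPKM in knockouts and 106 and 69.5 FPKM in wildtypes, so 5 tumours were below the normal range and tumours 2 of both ApcMin animals were within it. Those 2 tumours also had the highest colonocyte transcripts among the tumours, with Car1 at 2154 and 2119 FPKM, against 314 and 124 FPKM in tumours 1 of the same animals. The difference passed in heterozygous tumours (-2.69 ± 0.32, adjusted p = 0.000287) and in the Apc wildtype knockout tumour (-3.15 ± 0.86, adjusted p = 0.0334), an arm of 1 tumour whose error comes from the other groups. That call ended when either knockout colon specimen was left out. It did not pass in ApcMin knockout tumours (-1.31 ± 0.72, adjusted p = 0.25) or ApcMin Cftr wildtype tumours (-0.67 ± 0.72, adjusted p = 0.488).

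**Figure D2:**
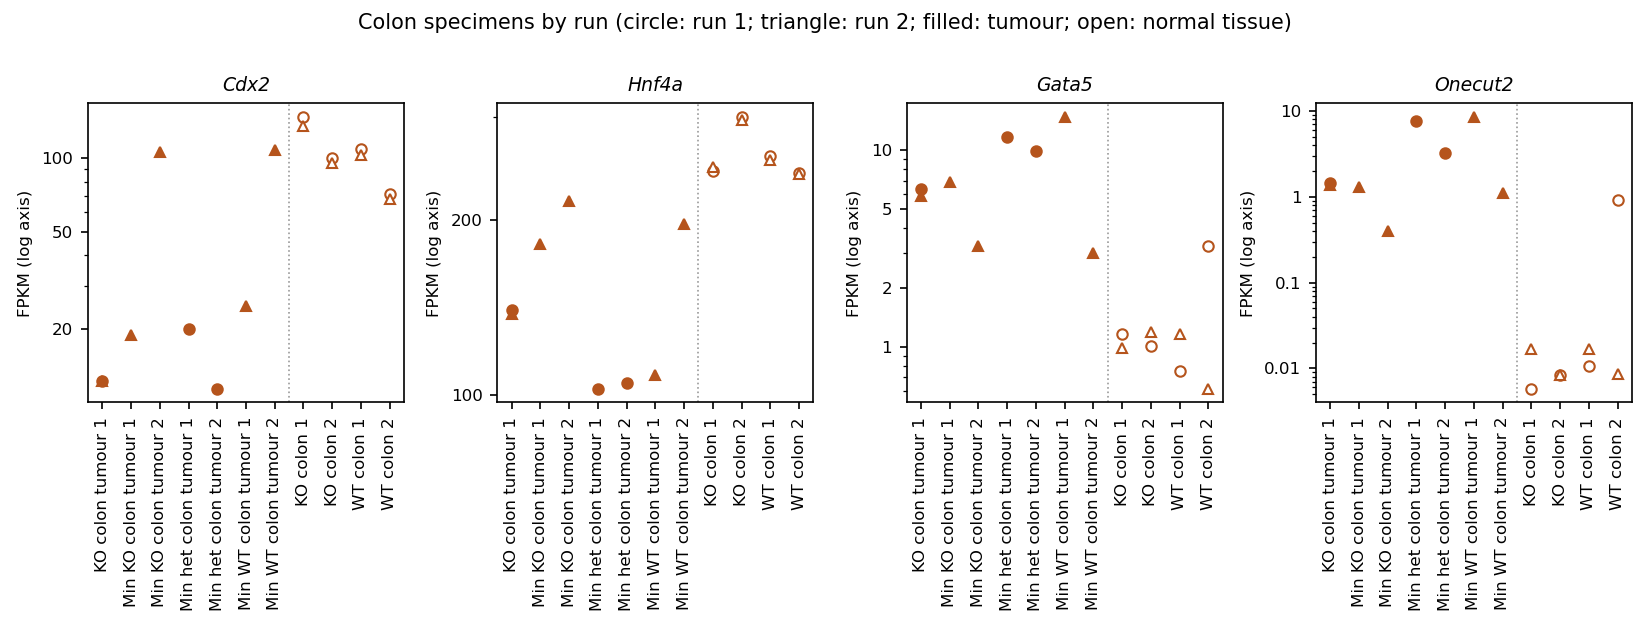
Levels in FPKM on a log axis of Cdx2, Hnf4a, Gata5 and Onecut2 in each colon specimen, tumours left of normal colon, with circles for run 1 libraries and triangles for run 2. Cdx2 lies between 11.4 and 24.9 FPKM in 5 tumours and at 106 and 108 FPKM in tumours 2 of the ApcMin knockout and ApcMin wildtype animals, and the run 1 library of wildtype colon 2 stands above its run 2 library for Gata5 and Onecut2.

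Cdx1 was at 149 FPKM in the Apc wildtype knockout tumour, 171 and 208 FPKM in ApcMin knockout tumours, 137 and 147 FPKM in heterozygous tumours and 86.9 and 179.7 FPKM in ApcMin Cftr wildtype tumours, against 206 to 259 FPKM in normal colon. It fell in heterozygous tumours (-0.70 ± 0.18, adjusted p = 0.0116) and in ApcMin Cftr wildtype tumours (-0.73 ± 0.26, adjusted p = 0.0494). Hnf4g was at 4.12 and 4.21 FPKM in heterozygous tumours, against 9.96 to 15.1 FPKM in normal colon, and fell (-1.37 ± 0.22, adjusted p = 0.00127). In the other colon tumours it was at 4.47 to 14.4 FPKM and passed no test.

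By group, 6 members passed in heterozygous tumours, against 53.2% of genes, and 4 in ApcMin Cftr wildtype tumours, against 38.0% of genes. In the Apc wildtype knockout tumour 1 member passed, against 12.8% of genes, and here there is no tumour replicate. In ApcMin knockout tumours 0 members passed in limma, against 10.9% of genes, and 2 members were at an unadjusted p under 0.05. Leaving out colon tumour 1 of the ApcMin Cftr wildtype animal left 1 member passing, with Cdx2 at 0.37. Without wildtype colon 1 there was also 1, and without wildtype colon 2 there were 0. Fitted to the compared groups alone, 0 members passed in ApcMin Cftr wildtype colon tumours, with 343 genes called.

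The other cells in the specimens differed between the groups as well. Smooth muscle markers summed to 116 to 1277 FPKM in colon tumours, against 2354 to 2961 FPKM in normal colon. Leukocyte markers summed to 51.6 to 1006 FPKM in colon tumours, against 37.3 to 88.9 FPKM in normal colon. The highest were heterozygous tumours 1 and 2, at 771 and 1006 FPKM, of which 744 and 986 FPKM were the neutrophil gene S100a8. The pan-leukocyte gene Ptprc was at 3.84 and 3.74 FPKM in those tumours, against 6.10 to 14.4 FPKM in normal colon, and the macrophage gene Csf1r at 8.78 and 7.01 FPKM, against 13.1 to 14.6 FPKM. Colonocyte genes summed to 200 to 2859 FPKM in colon tumours, against 3261 to 6157 FPKM in normal colon, and epithelial markers to 5174 to 9011 FPKM against 5611 to 8513 FPKM. Fibroblast markers summed to 319 to 1025 FPKM in colon tumours, against 333 to 422 FPKM in normal colon. The 1025 FPKM was that of the Apc wildtype knockout tumour, and no other colon tumour was above 422 FPKM. None of the 6 smooth muscle, 8 leukocyte, 4 colonocyte, 10 epithelial and 6 fibroblast genes was at 0 in any colon specimen. Between normal tissues each smooth muscle gene was lower in duodenum, with Actg2 at 178 to 219 FPKM, against 596 to 792 FPKM in colon. In Apc wildtype knockout duodenal tumour 2 Actg2 was at 20.3 FPKM. The part of these cells in the tumour changes and segment differences of the factors was not tested.

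In duodenal tumours, Hnf4g was lower than in normal duodenum in all 4 specimens, and Pdx1 varied most. Hnf4g was at 84.5 and 87.4 FPKM in Apc wildtype knockout tumours and 87.8 and 93.4 FPKM in heterozygous tumours. In normal duodenum it was at 154 and 141 FPKM in knockouts and 181 and 187 FPKM in wildtypes. The difference passed in heterozygous tumours (-0.81 ± 0.24, adjusted p = 0.0484) and missed the threshold in Apc wildtype knockout tumours (-0.77 ± 0.24, adjusted p = 0.0703). Without the specimen labelled heterozygous duodenal tumour 2 it was -0.85 (adjusted p = 0.107).

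Gata6 was also below normal in all 4 tumours, at 38.1 and 35.1 FPKM in Apc wildtype knockout tumours and 36.6 and 28.6 FPKM in heterozygous tumours, against 41.0 to 42.2 FPKM in normal duodenum. It passed in neither group, at -0.20 (adjusted p = 0.344) and -0.35 ± 0.11 (adjusted p = 0.0507). Of all genes tested, 28.4% had tumour and normal duodenum groups that did not overlap, in either direction.

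Pdx1 was at 13.97 and 69.4 FPKM in Apc wildtype knockout tumours, both above the 12.3 and 8.18 FPKM of knockout duodenum. In heterozygous tumours it was at 2.85 and 0.0363 FPKM, both below the 5.50 to 12.3 FPKM of normal duodenum. The differences were 1.55 ± 0.60 (adjusted p = 0.137) in Apc wildtype knockout tumours and -2.17 ± 0.69 (adjusted p = 0.0609) in heterozygous tumours. With Apc wildtype knockout tumour 1 left out, Pdx1 passed at 2.67 (adjusted p = 0.00966), but the single tumour then left is the one at 69.4 FPKM and its error comes from other groups. The tumour at 69.4 FPKM also held the highest summed duodenal iron and folate transport genes, at 887 FPKM over 5 genes, against 188 to 341 FPKM in the other duodenal specimens. The heterozygous specimen at 0.0363 FPKM was the one whose ileal genes go against its duodenal label, and without it the Pdx1 difference was -1.23 (adjusted p = 0.281). How far along the duodenum each tumour lay is not given in the sources used here.

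Gata4 in the specimen labelled heterozygous duodenal tumour 2 was at 13.5 FPKM and Onecut2 at 2.79 FPKM, against 52.5 and 12.5 FPKM in tumour 1. These levels lay within or below those of the ileum tumours, where Gata4 was at 14.3 and 29.5 FPKM in knockouts and 5.02 and 12.5 FPKM in Cftr wildtypes. Cdx2 and Hnf4a went the other way, at 160.5 and 376 FPKM in that specimen, the highest of all 23, against 86.2 and 220.0 FPKM in tumour 1. Neither Gata4 (-1.37 ± 0.74, adjusted p = 0.226) nor Onecut2 (-0.57) passed over both tumours, and Onecut2 was at 0.35 and Hnf4a at -0.19 without that specimen.

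In Apc wildtype knockout duodenal tumours Cdx1, Cdx2, Gata4, Gata5, Onecut2 and Hnf4a passed no test. Cdx2 was at 84.7 and 63.4 FPKM there, against 95.6 and 90.9 FPKM in knockout duodenum, and Hnf4a at 272 and 321 FPKM, against 251 and 277 FPKM. In limma 0 members passed, against 8.16% of genes, with 2 at an unadjusted p under 0.05. In heterozygous duodenal tumours 1 passed, lower in tumours, against 9.26% of genes lower and 9.71% higher. Gastric and Brunner gland markers summed to 616 and 102 FPKM in Apc wildtype knockout tumours and 162 and 10.7 FPKM in heterozygous tumours, against 1.9 to 19.1 FPKM in normal duodenum, and their part in Pdx1 was not tested.

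**Figure D3:**
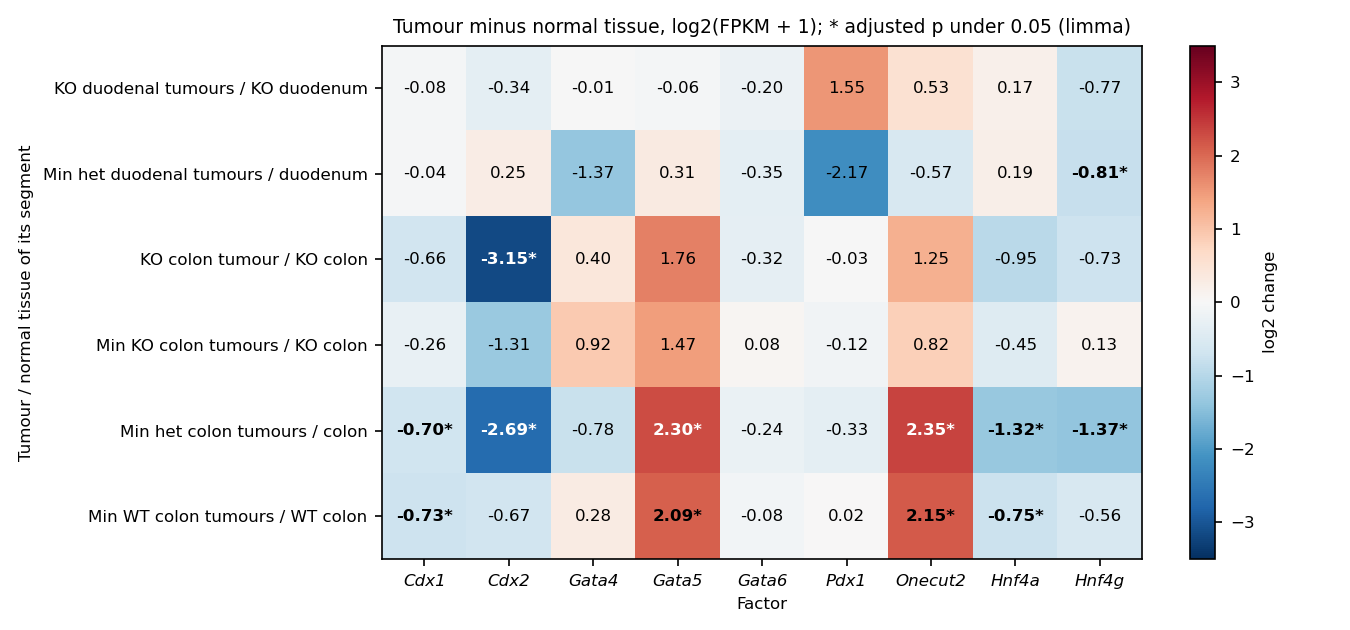
Heat map of the log2 difference of each factor between tumours and normal tissue of the same segment in 6 comparisons, with an asterisk where the adjusted p was under 0.05. Gata5 and Onecut2 are positive and Hnf4a negative in the 4 colon comparisons, while Hnf4g is negative in both duodenal comparisons.

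The segment pattern of the GATA factors and Hnf4g was present among tumours too. In the ApcMin knockout animal 5 members were higher and 1 lower in ileum than in colon tumours, against 7.38% and 5.67% of genes. In the ApcMin Cftr wildtype animal 4 members differed, against 12.4% of genes. Fitted to those tumours alone, 331 genes were called, Hnf4g passed (adjusted p = 0.0317), and Gata4 (adjusted p = 0.0661), Gata5 (adjusted p = 0.272) and Gata6 (adjusted p = 0.0969) did not. Gata4 was higher in ileum tumours by 3.31 ± 0.41 (adjusted p = 0.000498) in the knockout and by 2.69 ± 0.41 (adjusted p = 0.00167) in the Cftr wildtype. In the knockout animal Hnf4g was at 53.4 and 57.6 FPKM in ileum tumours, against 10.6 and 14.4 FPKM in colon tumours (2.08 ± 0.24, adjusted p = 0.00031). In the Cftr wildtype animal it was at 48.5 and 54.9 FPKM in ileum tumours, against 4.47 and 9.15 FPKM in colon tumours (2.82 ± 0.24, adjusted p = 2.76e-05).

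Gata5 and Gata6 were higher in ileum tumours of both animals, Gata5 by 2.78 ± 0.49 (adjusted p = 0.00395) in the knockout and 1.99 ± 0.49 (adjusted p = 0.0231) in the Cftr wildtype. In the knockout animal Onecut2 was at 7.71 and 4.64 FPKM in ileum tumours, against 1.29 and 0.401 FPKM in colon tumours (1.97 ± 0.56, adjusted p = 0.0406). In the Cftr wildtype animal it was at 10.5 and 7.33 FPKM in ileum tumours and 8.54 and 1.10 FPKM in colon tumours, so the groups overlapped (1.13, adjusted p = 0.232). Cdx1 was lower in ileum tumours of the knockout (-1.20 ± 0.26, adjusted p = 0.0125), and Cdx2, Hnf4a and Pdx1 passed in neither animal. Pdx1 was at 0.151 to 0.275 FPKM in the 4 ileum tumours, within the range of the colon specimens.

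Between duodenal and colon tumours, 8 members passed in the Apc wildtype knockouts, against 36.5% of genes, and 6 in the heterozygotes, against 40.1% of genes. The heterozygous duodenal tumours carry 1 animal number and the heterozygous colon tumours another, so segment and animal cannot be told apart between them. Cdx2 and Hnf4a, which passed no test between normal duodenum and colon, were among them in both. Cdx2 was at 86.2 and 160.5 FPKM in heterozygous duodenal tumours, against 20.1 and 11.4 FPKM in heterozygous colon tumours (2.87 ± 0.37, adjusted p = 0.000625). Without the specimen labelled heterozygous duodenal tumour 2, Cdx2 was at 2.43 (adjusted p = 0.00334), Hnf4a at 1.08 (adjusted p = 0.00231) and Gata5, no longer passing, at 1.30 (adjusted p = 0.0532). In Apc wildtype knockouts it was at 84.7 and 63.4 FPKM in duodenal tumours, against 12.3 FPKM in the colon tumour (2.48 ± 0.86, adjusted p = 0.0389). Hnf4a was at 220.0 and 376 FPKM in heterozygous duodenal tumours, against 102 and 105 FPKM in heterozygous colon tumours (1.46 ± 0.23, adjusted p = 0.00155).

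Whether the duodenum to colon difference itself changed in tumours was tested as an interaction. In the heterozygotes, where segment and animal cannot be told apart among the tumours, 4 members passed, against 25.3% of genes. The difference was larger in tumours than in normal tissue for Cdx2 (2.93 ± 0.47, adjusted p = 0.00512) and Hnf4a (1.51 ± 0.29, adjusted p = 0.00929). It was smaller for Gata5 (-1.99 ± 0.48, adjusted p = 0.021) and Onecut2 (-2.92 ± 0.76, adjusted p = 0.0265). Without the specimen labelled heterozygous duodenal tumour 2, Cdx2 was at 2.49 (adjusted p = 0.0136), Hnf4a at 1.12 (adjusted p = 0.00989) and Gata5 at -2.37 (adjusted p = 0.0211), while Onecut2 no longer passed, at -2.01 (adjusted p = 0.0582). Without heterozygous colon tumour 1, 2 members passed.

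In the Apc wildtype knockouts the interaction passed for 0 members in limma, against 2.74% of genes, with 3 at an unadjusted p under 0.05. The values were 2.81 ± 1.11 for Cdx2 (adjusted p = 0.166), 1.12 ± 0.41 for Hnf4a (adjusted p = 0.14) and -1.82 ± 0.76 for Gata5 (adjusted p = 0.191). The knockout colon tumour is 1 sample. The knockout normal tissue was also part of the heterozygous comparison.

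**Figure D4:**
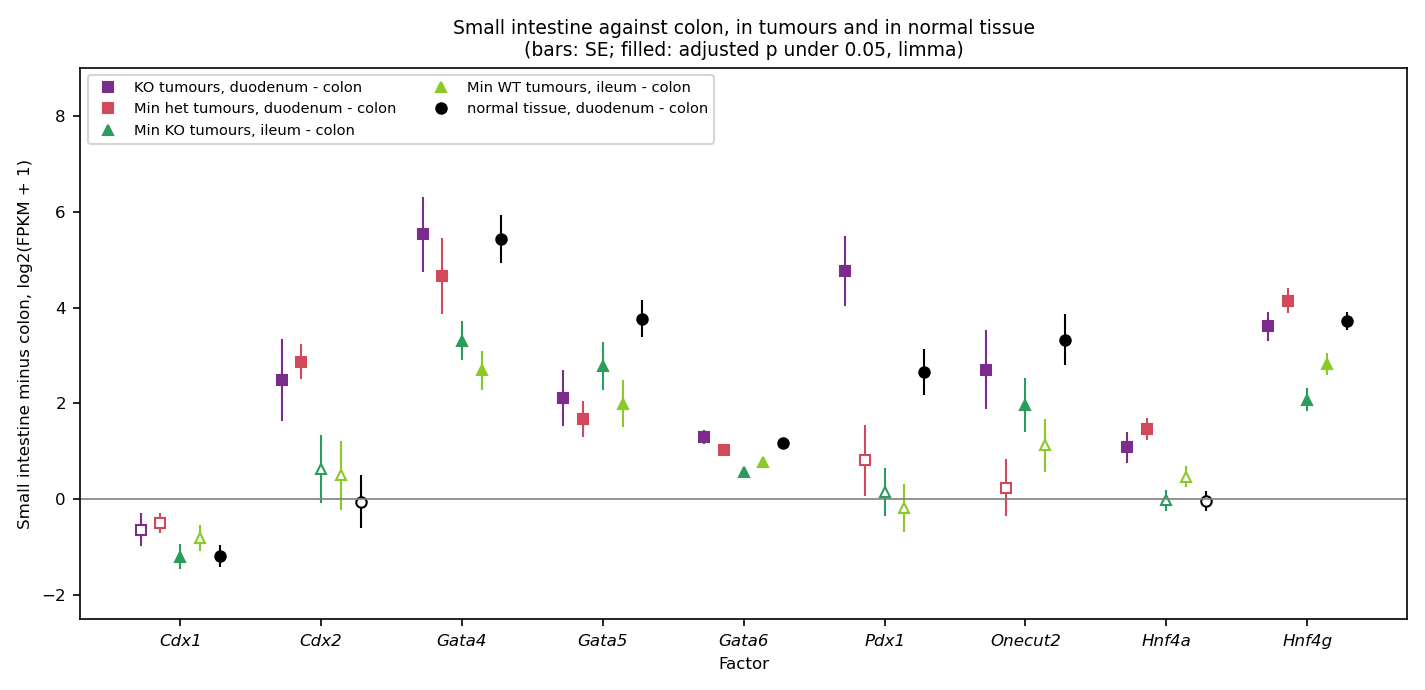
Log2 difference between small intestine and colon of each factor, in tumours and in normal tissue, with bars of 1 standard error and filled points where the adjusted p was under 0.05. Gata4 and Hnf4g are positive and called in every comparison, while Cdx2 and Hnf4a lie near 0 in normal tissue and are positive between duodenal and colon tumours.

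No member passed the test between Cftr knockout and wildtype specimens. In normal colon and in normal duodenum 0 members passed in limma, as did 0 of all genes, and 0 members were at an unadjusted p under 0.05, against 948 genes in colon and 368 in duodenum. In ApcMin colon tumours 0 members passed, against 0.0355% of genes, and in ApcMin ileum tumours 0 passed, against 0.241% of genes. At an unadjusted p under 0.05 there were 3 members in colon tumours and 1 in ileum tumours. Among colon tumours Hnf4g was at 10.6 and 14.4 FPKM in the knockout, against 4.47 and 9.15 FPKM in the wildtype (0.84, adjusted p = 0.212). With wildtype colon tumour 2 left out, the wildtype arm was tumour 1 alone, and 2182 genes and 5 members passed, against 5 genes and 0 members with it. Among ileum tumours Gata4 was at 14.3 and 29.5 FPKM in the knockout, against 5.02 and 12.5 FPKM in the wildtype (1.26 ± 0.41, adjusted p = 0.422).

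Genes that CDX and HNF4 factors are known to act on were read from lists. Of 10 CDX-dependent genes of enterocytes and goblet cells, 8 fell and 0 rose in heterozygous colon tumours, with a median log2 difference of -1.59, beside -0.018 over all genes tested and 53.2% of genes called. Among them Krt20, a keratin of mature surface cells, was at -1.96 (adjusted p = 2.71e-05), and Gucy2c, the guanylin receptor, at -0.94 (adjusted p = 8.96e-05). In the ApcMin Cftr wildtype colon tumours 2 fell, against 38.0% of genes called, the peptide transporter gene Slc15a1 (-2.82, adjusted p = 0.00112) and the protease gene Mep1a (-2.20, adjusted p = 0.0397). In ApcMin knockout colon tumours, with 10.9% of genes called, 1 rose, the sucrase gene Sis (3.14, adjusted p = 0.00318). In the Apc wildtype knockout colon tumour, with 12.8% of genes called, 1 fell, Gucy2c (-0.91, adjusted p = 0.0474). In the heterozygous interaction 7 of the 10 passed, all positive, against 25.3% of genes called, with Krt20 at 2.09 (adjusted p = 0.000764).

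Of 8 lipid transport genes bound by HNF4 factors, all 8 were higher in normal duodenum than in normal colon, against 55.6% of genes called, with Mttp at 7.70 and Apob, the scaffold of chylomicrons, at 4.31. In heterozygous colon tumours 2 fell, against 53.2% of genes called, the fatty acid binding gene Fabp2 (-5.04, adjusted p = 0.0001) and Apob (-0.99, adjusted p = 0.0483). That test used run 1 columns, so its normal colon included the run 1 library of wildtype colon 2. This library held 2254 FPKM summed over these 8 genes, against 179 FPKM in run 2, which raises the normal level they are set against. In ApcMin knockout colon tumours 5 rose and 1 fell, against 10.9% of genes called, with Apoa4 at 4.35 (adjusted p = 0.00692), and tumour 1 of that animal held 289 FPKM of Apoa1. In both duodenal tumour groups 0 of 8 passed in limma, with medians of -0.45 in Apc wildtype knockouts and -1.44 in heterozygotes, beside -0.011 and 0.0074 over all genes tested.

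Of 20 other regulators of gut identity, 18 were tested. Foxa1, a forkhead factor of gut endoderm, was at 11.5 and 11.7 FPKM in Apc wildtype knockout duodenal tumours and 18.9 and 20.0 FPKM in heterozygous ones, against 3.99 to 4.68 FPKM in normal duodenum. It rose in both groups, where 8.16% of genes were called in Apc wildtype knockouts and 9.71% rose in heterozygotes, by 1.21 ± 0.12 (adjusted p = 9.16e-05) in Apc wildtype knockouts and by 1.99 (adjusted p = 3.31e-05) in heterozygotes. Onecut3, a paralogue of Onecut2, rose in both as well (1.24 ± 0.24, adjusted p = 0.00822, in Apc wildtype knockouts and 1.23, adjusted p = 0.0153, in heterozygotes). In colon tumours Onecut3 was at 0 to 0.162 FPKM. In heterozygous colon tumours 3 of these regulators rose and 6 fell, against 53.2% of genes called, among them Nr5a2 (-1.71, adjusted p = 0.00029) and Vdr, the vitamin D receptor (-2.13, adjusted p = 0.000414).

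For the 6 members spanning at least 2 log2 units over the 12 groups, the genes with the nearest pattern were those with the smallest root mean square difference of centred group means. Onecut2 was nearest to Tbx3 (0.398 log2 units), Ptgr1 and Gata5, and Gata5 to Gp1bb (0.374) and Tbx3 (0.391). Hnf4g was nearest to Dgat1 (0.262), an enzyme of triglyceride synthesis, and Gata4 to Gm5549 (0.285) and Ace (0.319). Cdx2 was nearest to Igf2bp2 (0.311), and Pdx1 to 2210019I11Rik (0.389). These distances share libraries and groups and are a description over 12 group means.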

How the data were processed

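The authors deposited FPKM values, for 23356 rows and 68 columns. Tools named in the submitters' processing notes are TopHat2 2.0.13, Cuffnorm and FastQC, with build mm10. Per the labels' protocols, RNA was polyadenylated. FPKM carries no counts, so no counting interval was computed, and depth limits mainly low genes. Whether counting used strand is not given in the sources used here.

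Columns were averaged per specimen. In R 4.3.3, limma 3.58.1 was fitted to log2(FPKM + 1) with trended eBayes, and p-values were adjusted (Benjamini-Hochberg, threshold 0.05) over the 14098 genes that reached 1 FPKM in 2 specimens. Comparisons among Apc wildtype groups came from a fit to all specimens. Those of ApcMin Cftr wildtype and knockout tumours used run 2 columns, and those of heterozygous tumours run 1 columns. Where an arm held 1 sample, its error came from the spread within the other groups. The smallest p of an exact permutation test of 2 against 2 specimens is 0.333. In these fits each p-value rests on a spread pooled over all groups of the fit. To it the ApcMin groups gave differences between tumours of an animal, and other groups with more than 1 sample differences between animals. The wildtype duodenum counted as 1 sample, since its specimens differed by 0.879 times the sampling noise in run 1 and 1.10 times in run 2, against 2.01 to 7.69 in other groups. Colon and duodenum with a shared number come from the same animal per the labels, and their deviations correlated at 0.0332 in knockouts and 0.0103 in wildtypes.

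The members, lists and tests were chosen with earlier results of these data known. All members were named, and of each list up to 4 genes with the smallest p, plus genes named as markers of specimens, which were chosen after their values were seen. Settings varied were the pseudocount (0.1), the filter (none), quantile normalisation, fits to the compared groups only, single runs, a replicate block, omission of each specimen or of the wildtype colon 2 library of run 1, and wildtype duodenum as 2 specimens. The procedure was tested on simulated data. Not every listed gene is reported here. Promoter sequences are from RefSeq on GRCm38.p6. Of the 9 members, windows of 4 are used here, 5 windows in all.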

Additional observations from a re-analysis of the deposited data

Results flagged for a closer look

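In the heterozygous ApcMin tumours, 4 of the factors differed from normal tissue in their duodenum to colon difference by the interaction test. Cdx2 was at 2.93 and Hnf4a at 1.51 on the log2 scale, so both were lower in colon tumours relative to duodenal tumours than in normal tissue. Gata5 was at -1.99 and Onecut2 at -2.92, so both were nearer the duodenal level in colon tumours than in normal colon. The duodenal and the colon tumours came from different animals, so segment and animal cannot be told apart. Without the specimen labelled duodenal tumour 2, whose ileal genes go against that label, Cdx2 was at 2.49, Hnf4a at 1.12 and Gata5 at -2.37, and Onecut2 at -2.01 no longer passed (limma, adjusted p = 0.0582).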

How the results depend on the processing

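Numbers of members passing are given out of 9. The number of all genes called also changed with the setting or the specimen left out, here and in the sections above. It is not given beside most of these counts, so a changed count is not a result about the factors alone. Between normal duodenum and colon 7 passed under every setting, except that quantile normalisation added Hnf4a (-0.46, adjusted p = 0.0186) to make 8. For Apc wildtype knockout duodenal tumours, 0 passed, but 1 with the compared groups alone, without the run 1 library of wildtype colon 2, or with the wildtype duodenum as 2 specimens. For the Apc wildtype knockout colon tumour, 1 passed, but 2 with a pseudocount of 0.1, quantile normalisation or run 2 alone, and 3 with the groups alone, the wildtype duodenum as 2 specimens or run 1 alone. For ApcMin Cftr wildtype colon tumours, 4 passed, but 0 with the groups alone or the replicate block. For ApcMin knockout colon tumours, 0 passed, but 2 (Gata4 and Onecut2) with a pseudocount of 0.1. For heterozygous duodenal tumours, 1 passed, but 0 with a pseudocount of 0.1, no filter or the groups alone, and 3 with the wildtype duodenum as 2 specimens. Between ileum and colon tumours of the Cftr wildtype, 4 passed, but 1 with the groups alone or the replicate block. The interaction in Apc wildtype knockouts passed for 0 members, but for 2 with the groups alone or the replicate block and 1 in run 1 alone. The genotype difference in ileum tumours passed for 0 members, but for 1 with the replicate block (Gata4). The block stands for the animal between normal tissues, and elsewhere the specimens share only a number.

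Leaving out each specimen gave 0 to 1 members for Apc wildtype knockout duodenal tumours, 0 for their colon tumour, 0 to 5 for ApcMin Cftr wildtype colon tumours, 4 to 7 for heterozygous colon tumours and 0 to 3 for heterozygous duodenal tumours. It gave 3 to 6 for ileum against colon tumours of the Cftr wildtype, 3 to 5 for the knockout (3 without ileum tumour 1), 5 to 7 between the Apc wildtype knockout tumours (5 without duodenal tumour 2), 2 to 6 for the heterozygous interaction and 0 to 5 for genotype in ApcMin colon tumours.

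Leaving out a specimen turned the sign of the results given here, none of which passed with all specimens. The list is not complete, since small differences such as that of Cdx2 between normal tissues can turn as well. Cdx2 in ApcMin Cftr wildtype colon tumours ran from -1.70 to 0.37, and Cdx2 in ileum against colon tumours from -0.58 to 1.84 in knockouts and -0.53 to 1.54 in wildtypes. Gata5 between genotypes of ApcMin colon tumours ran from -1.44 to 0.53, and Hnf4a between normal tissues from -0.112 to 0.032. In heterozygous duodenal tumours Onecut2 ran from -1.49 to 0.35 and Hnf4a from -0.19 to 0.58, and Pdx1 against colon tumours from -0.13 to 1.76. The heterozygous Gata4 interaction ran from -1.53 to 0.36, with 0.051 without wildtype colon 1, and was 0.24 with a pseudocount of 0.1. The causes were not tested.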
